A study of Caenorhabditis elegans with 8 samples.

Results

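The 200 genes described here are *C. elegans* protein-coding genes that carry only a sequence name, such as C49H3.3, and that had the strongest excess of repair on the template strand in mixed-stage *xpc-1* worms. They were chosen from 6429 sequence-named protein-coding genes of the Ensembl annotation of WBcel235 that overlap no gene on the other strand, out of 46890 annotated nuclear genes. The rule ranked these genes by template-strand (TS) minus non-template-strand (NTS) reads per kb in *xpc-1* mixed replicate 1, so the values of that library describe the choice and are no finding. In nucleotide excision repair a short stretch of the damaged strand is removed. XR-seq reads these excised stretches, here those pulled down for a cyclobutane pyrimidine dimer (CPD). A read thus marks the place and strand of a repair event, although several reads may be copies of 1 event. The libraries came in 4 groups of 2 replicates. WT L1 larvae and *csb-1* L1 larvae were collected 1 h after UVB, WT L1 larvae were also collected without irradiation (WT no UV), and *xpc-1* worms of mixed stages were collected 1 h after UVB. The *xpc-1* worms differ from the L1 groups in both strain and stage, which cannot be told apart, so no test was run between them. No label ties the replicates to separate cultures, and p-values measure only the spread between these libraries.

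Transcription-coupled repair starts when RNA polymerase II stalls at a lesion on the strand it reads, and CSB is needed to recruit the excision machinery to the stalled polymerase. Global repair finds lesions on either strand of the genome through XPC. *csb-1* worms therefore keep global repair only, *xpc-1* worms keep transcription-coupled repair only, and WT worms have both. In *C. elegans* a gene keeps a sequence name, derived from the cosmid or clone that first covered it, until a gene class name is assigned.

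A sequence name did not mean that nothing is known of the product. RefSeq gave 162 of the 200 genes a product name other than uncharacterized or hypothetical, and 38 were uncharacterized there. They are therefore called sequence-named genes below, and members for short. The named products included mitochondrial proteins (15 members), factors of ribosome biogenesis and rRNA processing (16), proteins of the secretory pathway and vesicle transport (13), and proteins of transcription and nuclear RNA (8). These groups were drawn up from the product names after the members were known.

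The top ranks were held by very short open reading frames. Of the 200 members, 21 were between 30 and 93 bp long with 1 exon each, and 8 of these were among the 10 highest ranks. An exon of a longer protein-coding gene on the same strand enclosed 20 of the 21, and their reads cannot be told from reads of that host gene. The short frames lay a median of 32 bp from the annotated start of the host, and 18 of the 20 lay within 500 bp of it. The 4 members of 30 bp are printed below because they show how little sequence such a rank rests on. They are given on the coding strand, 5′ to 3′, from the WBcel235 genome, with the first and last codon in capitals.
B0035.22: ATGttgtttcttcgttgtttctttaatTAA
T04H1.13: ATGatagatcgaatacggcgtgagcagTAG
Y54F10AM.15: ATGaaattattgtgtaaatttctgctgTAA
T03G6.7: CTGatgtataggattatgtggcaattgTGA
B0035.22 lies at IV:11315153-11315182 on the + strand and is the short member that no longer coding gene enclosed. T04H1.13 lies at V:12245001-12245030 on the - strand inside slfl-5. Y54F10AM.15 lies at III:2528650-2528679 on the - strand inside rbc-2. T03G6.7 lies at X:2594039-2594068 on the + strand inside nhr-40 and opens with CTG in the annotation. The TS of T04H1.13 and of T03G6.7 holds 1 TT dinucleotide, the usual site of a CPD, that of B0035.22 holds 2, and that of Y54F10AM.15 holds 5.

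The excised oligonucleotides themselves are shown for the members ranked 1, 2, 3 and 5, as the 24-nt TS position with the most copies in *xpc-1* mixed replicate 1. The letters are the excised strand, 5′ to 3′, read from the reference genome, and capitals mark runs of adjacent thymines where a TT dimer could form.
C08B6.18: gtctgctcatccTTaaaTTTgtca
C55C3.73: tgcggctacTTTTcTTTTgTTccg
B0035.22: aacgaagaaacaacaTTaaaagat
C07H6.2: ggctcTTcgTTcTTTTTgtgctcg
The positions are V:10134103-10134126 on the + strand, IV:5703402-5703425 on the + strand, IV:11315145-11315168 on the - strand and III:7521293-7521316 on the - strand. The 4 positions had 18, 5, 3 and 8 copies by the number in the read name. They rested on 1, 2, 1 and 2 kept reads of that library. A TT lay 6 nt from the 3′ end in the oligonucleotide of C55C3.73 and in none of the other 3. Over all TS reads of 24 nt within members, the share with a TT at this place was 48.8% and 48.3% in the WT replicates, 47.9% and 47.0% in *csb-1*, and 44.4% and 41.95% in *xpc-1* mixed. The last value rests on 205 reads (exact 95% interval 35.1% to 49.0%, counting error only). A TT anywhere in the read was present in 97.1% to 99.7% of these reads in the irradiated libraries.

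The WT replicates had 8198054 and 3252700 kept reads and the *csb-1* replicates 6628507 and 13203914. *xpc-1* mixed had 4762651 and 143716, and WT no UV had 10260 and 12916. *xpc-1* mixed replicate 2 is thus shallow, and a member with 0 reads there may have had up to 3. By the number in the read name, copies per kept read averaged 1.86 and 18.9 in WT and 1.60 and 3.29 in *csb-1*. In *xpc-1* mixed they averaged 3.22 and 1.25. The mutated genes were checked by the longest stretch without a read in both libraries of their strain, which is 0 there by construction. In the gene csb-1 it was 965 bp long and held 52 and 26 reads in the WT replicates. In the gene xpc-1 it was 852 bp long and held 5 and 3 reads in WT and 7 and 8 in *csb-1*. The whole gene xpc-1 held 469 and 165 reads in WT and 361 and 887 in *csb-1*. This stretch was thus poor in reads in the other strains too, and it cannot show the mutation. Among the marker lists, the 11 germline genes had a pooled TS level of 28.98 and 17.7 reads per kb and per 1000000 kept reads (RPKM) in *xpc-1* mixed against 4.40 to 4.95 in the L1 libraries, with no gene at 0. The 7 sperm genes had TS levels of 1.504 and 1.02 RPKM in *xpc-1* mixed, with 4 and 6 of them at 0 TS reads. They had 4.001 to 4.62 in the L1 libraries, with 2 to 5 at 0. The filter on mapping quality drops reads that map equally well to several places, and its part in these zeros was not tested. The 6 yolk genes had TS levels of 0.551 and 0.891 RPKM in *xpc-1* mixed, with 0 and 4 of them at 0 TS reads. In the L1 libraries these levels were 1.004 to 1.36. L1 libraries also hold global repair on both strands, so TS levels alone do not compare transcription between the groups. The TS share of the yolk genes was 75.9% and 80% in *xpc-1* mixed, the last from 4 TS reads and 1 NTS read. It was 47.0% to 54.5% in the L1 libraries. For the sperm genes it was 51.0% and 50% against 49.7% to 59.3%. TS levels in *xpc-1* mixed were 4.96 and 7.10 RPKM for muscle (L1 libraries 3.85 to 4.96), 10.9 and 18.6 for neuron (5.496 to 8.22), 5.67 and 8.99 for intestine (4.72 to 5.84), and 5.13 and 5.23 for hypodermis (3.68 to 4.35). The part of tissue and stage in the members' values was not tested.

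In *xpc-1* mixed replicate 1, the library that chose them, the rule values ran from 213.19 to 788 reads per kb with a median of 266. Just inside the threshold lay R10D12.13 (213.48), F11A10.5 (213.29) and F44E7.4 (213.19). Just outside lay Y57E12AL.6 (212.87), T09F3.4 (212.63) and ZK686.2 (211.74), so the list ends on a slope and not at a gap. F44E7.4, named insulin-degrading enzyme in RefSeq, had 892 TS and 13 NTS reads in this library. C08B6.18, the highest-ranked member, had 28 TS and 2 NTS reads over 33 bp. The 505 gene-class-named genes at or above the value of the last member show that strong TS repair in this library was not confined to sequence-named genes. Pooled over members, this library had 62632 TS and 2708 NTS reads, a TS share of 95.9%.

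The replicate that the rule did not use had a like TS share at much lower depth. In *xpc-1* mixed replicate 2, members had 2076 TS and 75 NTS reads, a TS share of 96.5% (exact 95% interval 95.6% to 97.2%). Of the 200 members, 120 were among the 200 highest of the 6429 ranked genes there, where the list takes up 3.11% of the genes ranked, and 182 were among the highest 1000. The median rank of members in replicate 2 was 153.5. Among the 179 members longer than 100 bp, 112 were in that top list and 1 had 0 TS reads. Among the 21 short members, 13 had 0 TS reads in replicate 2 and the total was 15 reads, so single reads decided their ranks.

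The 5 members with the highest TS density in replicate 2 included 4 of these short frames. C53H9.4 (93 bp, inside egl-30, which encodes a G protein alpha subunit) led with 53.8 TS reads per kb, which came from 5 reads. C31H5.4, a member of 183 bp named for a nematode-specific peptide family, followed with 49.2 from 9 reads. C34D10.5 (41.7), ZK856.19 (39.2) and C08B6.18 (30.3) rested on 3, 2 and 1 reads. Only the count of C31H5.4 came from a frame longer than 100 bp.

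Members also carried more repair on the TS than on the NTS in WT larvae, which have both pathways, and the strands were closer to equal in *csb-1* larvae, which have no CSB. The TS share of the pooled members was 71.2% and 73.6% in the WT replicates (25401 and 10953 TS reads) and 54.5% and 53.3% in *csb-1* (10993 and 21175 TS reads). The other sequence-named genes had TS shares of 54.3% and 54.9% in WT and 49.9% and 49.99% in *csb-1*. The 200 gene-class-named genes ranked highest by the same measure had 77.0% and 81.1% in WT and 58.6% and 56.7% in *csb-1*. Of the TTs within members, 51.5% lay on the TS, against 50.7% in both other sets.

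By level, WT and *csb-1* were further apart on the TS than on the NTS. The median TS level of members was 12.03 and 13.5 RPKM in WT and 7.07 and 6.74 in *csb-1*, and it was 58.1 and 57.4 in *xpc-1* mixed. The median NTS level was 4.89 and 4.85 RPKM in WT, 5.41 and 5.63 in *csb-1* larvae, and 1.65 and 0 in *xpc-1* mixed. For scale, 76 cytosolic ribosomal protein genes, a class of strongly transcribed genes, had pooled TS levels of 18.1 and 19.01 RPKM in WT, 7.71 and 5.97 in *csb-1* and 56.7 and 90.2 in *xpc-1* mixed.

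**Figure D1:**
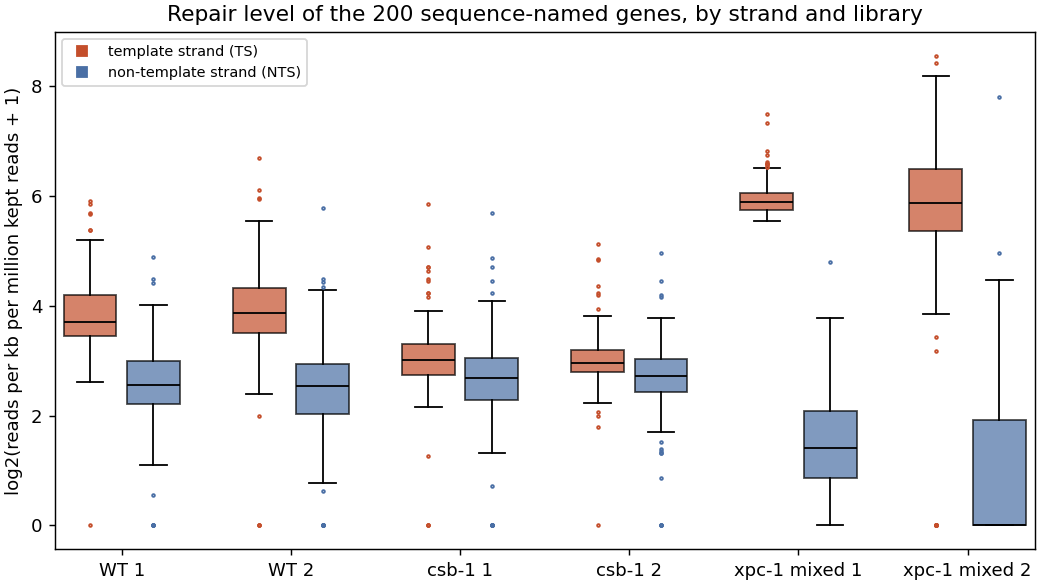
Box plots of log2(RPKM + 1) of the 200 members on the TS and the NTS in the 6 irradiated libraries, with the median as the line, quartiles as the box, whiskers to 1.5 times the box and points beyond them. The TS boxes sit above the NTS boxes in WT and *xpc-1* mixed, with medians of 12.03 and 13.5 RPKM against 4.89 and 4.85 in WT, while the boxes overlap in *csb-1*; replicate 1 of *xpc-1* mixed chose the members.

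Without irradiation the members held few reads, in libraries that are themselves small. The WT no UV libraries had 16 TS and 7 NTS reads in replicate 1 and 17 TS and 20 NTS reads in replicate 2 over all 200 genes, 0.224% and 0.286% of the kept reads, against 0.304% and 0.301% in *csb-1*. No reads fell on 179 and 168 members, and no member had more than 2 and 3 reads.

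Gene by gene, the strand ratio, log2((TS + 0.5)/(NTS + 0.5)), was compared between WT and *csb-1* in a limma fit over the 23836 genes whose mean over the L1 libraries reached 20 reads, and called at a Benjamini-Hochberg adjusted p of 0.05. This measure comes from libraries that the rule did not use. Of the 200 members 177 were tested, and the 23 left out included all 21 short frames. The filter passed 176 of the 177 on the reads of each strain alone. The ratio was higher in WT for 67.2% of them, and 58 were not called, where 13.3% of all tested genes were called in this direction. No member was called lower, where the background was 0.344%. The median difference was 1.16 over tested members, 0.21 over all genes tested, 0.18 over other sequence-named genes and 1.49 over the top gene-class-named genes. Both WT libraries lay above both *csb-1* libraries in 162 members (background 41.0%), below them in 0 (10.9%), and the libraries overlapped in 15. Without *csb-1* replicate 1 the count called fell to 52 (background 4.73%), and without *csb-1* replicate 2 to 46 (4.80%).

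**Figure D2:**
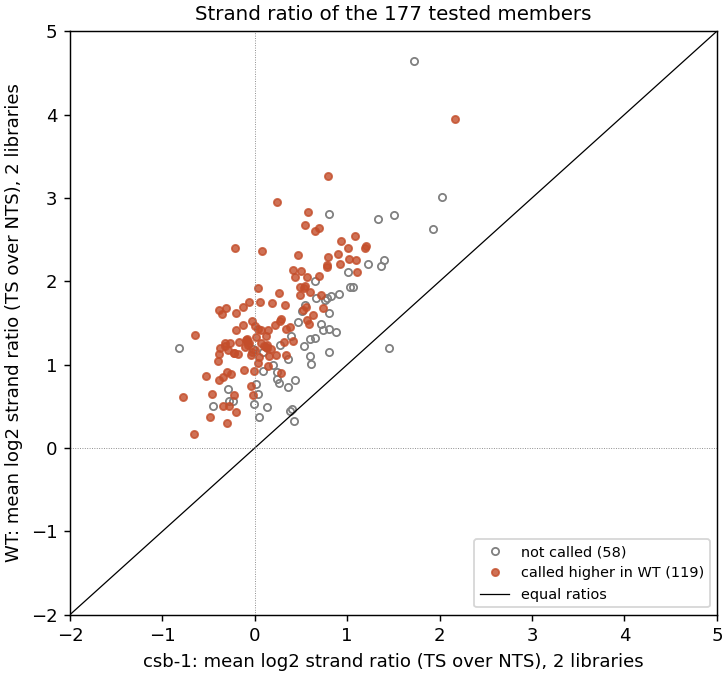
Mean log2 strand ratio of 2 libraries in WT (vertical) against *csb-1* (horizontal) for the 177 tested members, filled where called. All but 2 of the points lie above the line of equal ratios, with 67.2% called higher in WT and 58 not called.

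**Figure D3:**
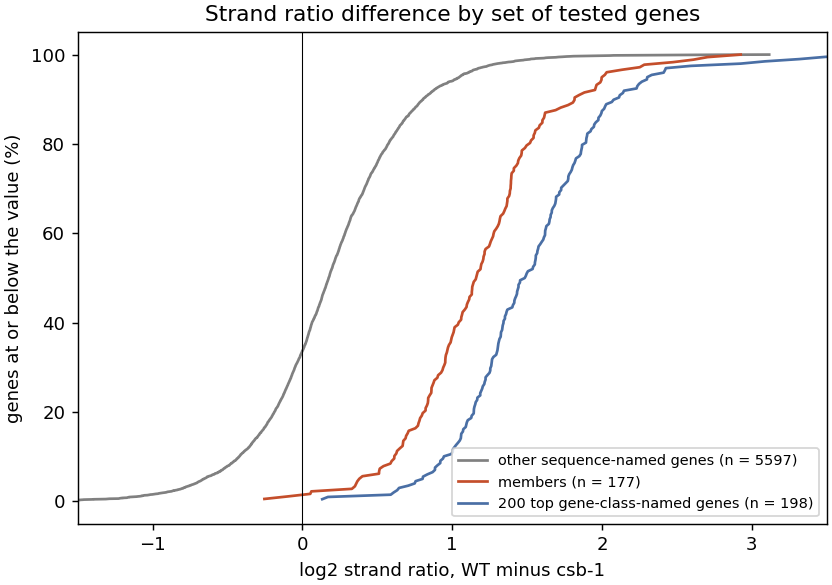
Cumulative share of tested genes (%) against the difference in log2 strand ratio, WT minus *csb-1*, for members, the other sequence-named genes and the 200 top gene-class-named genes. The curve of members crosses its median at 1.16, between 0.18 for the other sequence-named genes and 1.49 for the gene-class-named genes.

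Calls were more frequent among members with more reads. Of the 118 members with a mean of at least 100 reads in the L1 libraries, 100 were called, and of the 59 with 20 to fewer than 100 reads, 19 were called. By length, 25 of 27 tested members over 2000 bp, 67 of 82 between 1000 and 2000 bp, 25 of 56 between 500 and 1000 bp and 2 of 12 between 100 and 500 bp were called. The median difference in these classes stayed between 1.12 and 1.18. Members that overlap no gene on their own strand gave 100 calls of 146 tested, with a median of 1.19. The shares of all genes called in the same classes of reads, length or overlap are not given here. These counts by class are therefore not read as results about the members.

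The members with the largest called differences, among those with at least 100 reads on average, had a clear TS excess in both WT libraries and strands that were closer to each other in *csb-1*. C49H3.3, named after the yeast protein YBL028C, had 150 TS and 30 NTS reads in WT replicate 1 and 54 and 4 in replicate 2. In *csb-1* it had 29 TS and 27 NTS reads in replicate 1 and 67 and 51 in replicate 2. The ratio differed by 2.70 (SE 0.40, limma adjusted p = 0.000772), and neither WT library came near the *csb-1* values.

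Y57G11C.33, named for ERF4, which in yeast helps to attach palmitate to Ras, had 138 TS and 26 NTS reads in WT replicate 1 and 79 and 4 in replicate 2. The *csb-1* replicates had 58 TS against 25 NTS reads and 81 against 62. The difference was 2.47 (SE 0.47, limma adjusted p = 0.00301), and *csb-1* replicate 1 kept some TS excess. F58F12.1, the delta subunit of the mitochondrial ATP synthase, had 138 TS and 27 NTS reads and 65 and 6 in the WT replicates, and 58 and 32 and 87 and 70 in *csb-1*. Its difference was 2.25 (SE 0.36, limma adjusted p = 0.0011).

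K08D12.3, which has a CCHC zinc finger, a fold that binds nucleic acids, had 204 TS and 53 NTS reads in WT replicate 1 and 101 and 9 in replicate 2. In *csb-1* the strands were closer, with 51 and 41 reads in replicate 1 and 96 and 56 in replicate 2, a difference of 2.13 in the ratio. Its TS level was also higher in WT by 1.89 on the log2 scale (SE 0.18, limma adjusted p = 3.76e-06).

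B0334.4 and C14B9.10 were the members of this set in which *csb-1* had more NTS than TS reads. B0334.4 has a PRELI/MSF1 domain, found in proteins that carry lipids between mitochondrial membranes. Its reads were 114 TS and 46 NTS and 46 and 17 in WT, but 32 and 54 and 77 and 112 in *csb-1*, a difference of 2.00 (SE 0.29). C14B9.10, named complex III subunit 9 of the respiratory chain, had 216 TS and 67 NTS reads and 82 and 28 in WT, and 54 and 63 and 115 and 162 in *csb-1*. Its difference was 1.96 (SE 0.23), and the 2 libraries of each strain lay close together.

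C16A3.6 is named for MAK16, which in yeast is needed to build the large ribosomal subunit. It had 220 TS and 53 NTS reads and 103 and 11 in WT, and 70 and 51 and 160 and 89 in *csb-1* (difference 1.96, SE 0.32). Y71F9AL.9 has a CUE domain, which binds ubiquitin. Its log2 ratios were 2.32 and 2.97 in the WT replicates and 0.88 and 0.50 in *csb-1* (difference 1.95, SE 0.26). In all 8 of these members both WT libraries were above both *csb-1* libraries.

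At the other end, 6 members with enough reads had the lowest differences and none was called. C24F3.2, named as a protein-tyrosine-phosphatase, had 101 TS and 93 NTS reads and 42 and 29 in WT, and 89 and 78 and 176 and 112 in *csb-1*. The difference was -0.10 (SE 0.26, limma adjusted p = 0.882), although the same gene had 370 TS and 24 NTS reads in *xpc-1* mixed replicate 1 and ranked 65. In *xpc-1* mixed replicate 2 it had 4 TS and 1 NTS reads and ranked 732. Its sign turned when 1 library was left out, to 0.11 without WT replicate 1 and 0.13 without *csb-1* replicate 2.

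F58H1.3, the enolase-phosphatase of methionine salvage, had 90 TS and 59 NTS reads and 31 and 28 in WT, and 60 and 46 and 98 and 120 in *csb-1*. Its difference of 0.33 had an SE of 0.31. F40A3.3, a phosphatidylethanolamine-binding protein homolog, had a ratio difference of 0.35 (SE 0.32). Its TS level was nonetheless called higher in WT, by 0.80 (SE 0.22, limma adjusted p = 0.0161).

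F49C12.9, with a ubiquitin-associated domain, differed by 0.36 (SE 0.25), and T09B4.2, a torsin, an ATPase of the endoplasmic reticulum and nuclear envelope, by 0.38 (SE 0.32). ZK1307.8, the beta subunit of glucosidase 2, which trims N-glycans in the endoplasmic reticulum, differed by 0.54 (SE 0.23). Its TS level was called higher in WT by 0.57 (SE 0.17, limma adjusted p = 0.0319).

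**Figure D4:**
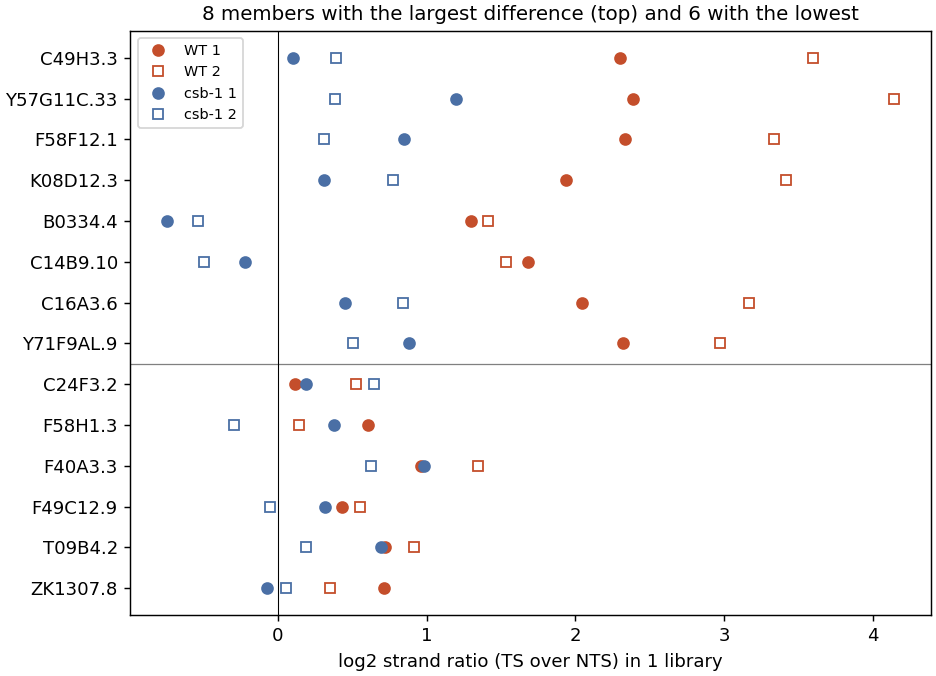
Log2 strand ratio in each of the 4 L1 libraries (horizontal) for the 8 members with the largest called difference above the line and the 6 with the lowest difference below it. Red marks are WT and blue marks *csb-1*, filled for replicate 1 and open for replicate 2; the strains are apart in the upper 8 and close or mixed in the lower 6, with differences of 1.95 to 2.70 and -0.10 to 0.54.

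The product groups had similar counts of calls. Of the 15 mitochondrial members, all tested, 11 were called higher in WT and 0 lower, with a median difference of 1.38. Besides F58F12.1 and C14B9.10, they included F01G4.6, the phosphate carrier of the inner membrane (1.55, SE 0.17). F36A2.7, subunit 4 of cytochrome c oxidase, had log2 ratios of 2.29 and 1.82 in WT and 0.81 and 0.33 in *csb-1* (1.49, SE 0.29). C47E12.2, an ADP/ATP translocase, differed by 1.38 (SE 0.21). It had 212 TS and 134 NTS reads and 65 and 44 in the WT replicates, but a mean log2 ratio of -0.78 in *csb-1*, where the NTS excess itself was called. T27E9.2, R186.8, C26B2.7 and Y17G9B.5 were the 4 that were not called, with differences between 0.67 and 2.02.

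Among the 16 members of ribosome biogenesis and rRNA processing, 11 were called higher in WT and 0 lower, with a median of 1.21. Y51H7C.7, named for the nuclear protein C1D, which in yeast and human cells works with the exosome, differed by 2.61 (SE 0.71). C53H9.2, named for large subunit GTPase 1, differed by 1.61 (SE 0.20), F10E7.5, the assembly factor mrt4, by 1.56 (SE 0.29), and T25G3.3, the export adaptor NMD3 of the large subunit, by 0.87 (SE 0.20). F10E9.11, named for the yeast factor FYV7, had the lowest value at 0.37 (SE 0.36) and was not called.

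Of the 13 members of the secretory pathway and vesicle transport, 11 were called higher in WT and 0 lower, with a median of 1.32. They included both signal recognition particle proteins, which bring nascent secretory proteins to the endoplasmic reticulum. F21D5.7, SRP54, had log2 ratios of 2.08 and 2.25 in WT and 0.83 and 0.74 in *csb-1* (1.38, SE 0.22). ZK512.4, SRP9, had 59 TS and 22 NTS reads and 37 and 7 in WT, and 16 and 14 and 48 and 38 in *csb-1* (1.60, SE 0.45). C30B5.2, named for the sorting protein VPS55, differed by 1.82 (SE 0.29). Of the 8 members of transcription and nuclear RNA, 6 were called higher in WT, among them F26E4.4, subunit RPC4 of RNA polymerase III (1.54, SE 0.27), and T24H10.1, a putative elongation factor S-II (1.43, SE 0.36). The shares in these groups, from 11 of 16 to 11 of 13, stand beside 67.2% over all tested members.

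Tested against equal strands, the WT ratio was above 0 in 166 of 177 members and below 0 in none, where 32.1% and 10.6% of all tested genes were called. In *csb-1* the ratio was above 0 in 37 members and below 0 in 4, where the background was 8.96% and 8.73%. After division by the TTs of each strand, 17 members were called above 0 and 2 below, where 3.63% and 3.27% of all genes were called. Before this division, the counts above and below 0 fell when 1 *csb-1* library was left out and rose when 1 WT library was. The shares over all genes moved the same way, and each of these fits leaves 1 library in a group. C31H5.4 had the highest called *csb-1* value, with 29 TS and 6 NTS reads and 42 and 9 in *csb-1* (2.17), and its TTs were 24 on the TS and 6 on the NTS. In WT it had 75 TS and 3 NTS reads and 27 and 2, and the difference of 1.77 (SE 0.50) was called. Y48A6B.3 had the next highest value (2.03), with 46.6% of its TTs on the TS. The 4 members below 0 in *csb-1* were C47E12.2, F49E8.7, B0334.4 and R107.5.

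The TS level, reads relative to the kept reads of the library on the log2 scale, was called higher in WT than in *csb-1* for 130 of 177 members and lower for 0, where 12.9% and 2.64% of all tested genes were called. The median difference was 0.96 for members and 0.00 for all genes. Of the members, 106 were called on both the ratio and the TS level, 13 on the ratio alone and 24 on the TS level alone. C07H6.2, at rank 5 and named for PPP1R11, an E3 ubiquitin ligase in mammals, was among the last. It had 68 TS and 15 NTS reads and 27 and 7 in WT, and 17 and 10 and 27 and 18 in *csb-1*. Its ratio difference of 1.35 (SE 0.47) had a limma adjusted p of 0.0762, whereas its TS level differed by 1.84 (SE 0.30, limma adjusted p = 0.00026).

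The NTS level was called higher in WT for 0 members and lower for 2, where 0.248% and 1.63% of all tested genes were called, and 25 members had an unadjusted limma p under 0.05. The 2 were Y38A10A.7, named N-alpha-acetyltransferase 40, which differed by -1.09 (SE 0.29), and C35A5.8, named exportin-7, which differed by -0.65 (SE 0.16). The median NTS difference was -0.18 for members and -0.21 for all genes tested. After quantile normalization the number called lower was 0. It rose without WT replicate 1 and fell without each *csb-1* library in turn, in fits that leave 1 library in a group.

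Along the gene, the TS level of members was higher on the 5′ side of the gene's midpoint than on the 3′ side. Over 137 members longer than 500 bp that overlap no gene on their strand, the mean TS level of the 5′ side was 14.97 and 16.4 RPKM in WT and that of the 3′ side 11.5 and 12.6. In *csb-1* these sides had 7.43 and 7.06 against 6.74 and 6.53 RPKM. In *xpc-1* mixed they had 66.8 and 77.8 against 49.5 and 49.5 RPKM. The ratio of the 5′ to the 3′ side was 1.30 in both WT replicates. It was 1.10 and 1.08 in *csb-1* and 1.35 and 1.57 in *xpc-1* mixed. On the NTS the ratio was 0.996 and 0.968 in WT and 0.969 and 0.917 in *csb-1*.

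Gene by gene this difference was not called for any member. The ratio of TS reads on the 5′ side to those on the 3′ side was tested in 174 members, and 0 were called higher or lower in WT, where 0.0694% and 0.0347% of 20186 genes were called. At an unadjusted limma p under 0.05 there were 21 members, and the median difference was 0.23 for members and 0.09 for all genes. Some members were called higher in WT when WT replicate 1 was left out, a fit with 1 WT library. The share of all genes called in that fit is not given here, so it is not read as a result about the members.

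On the NTS the level was higher upstream of the genes than inside them. In the 500 bp upstream of these members the mean NTS level was 22.2 and 22.2 RPKM in *xpc-1* mixed, against 2.26 and 1.52 on the 5′ side of the gene. The same upstream windows had 10.8 and 10.1 RPKM on the NTS in WT and 8.77 and 7.80 in *csb-1*. The windows were not cleared of neighbouring genes, whose part in these levels was not tested. The gene bodies, by contrast, were chosen to overlap no gene on the other strand. They were also ranked by TS minus NTS reads in *xpc-1* mixed replicate 1, so the rule itself favours a low NTS level inside them there. Downstream of the gene the TS level in *xpc-1* mixed was 26.1 and 19.7 RPKM, lower than on the 3′ side of the gene and higher than the NTS level of 6.86 and 4.16.

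**Figure D5:**
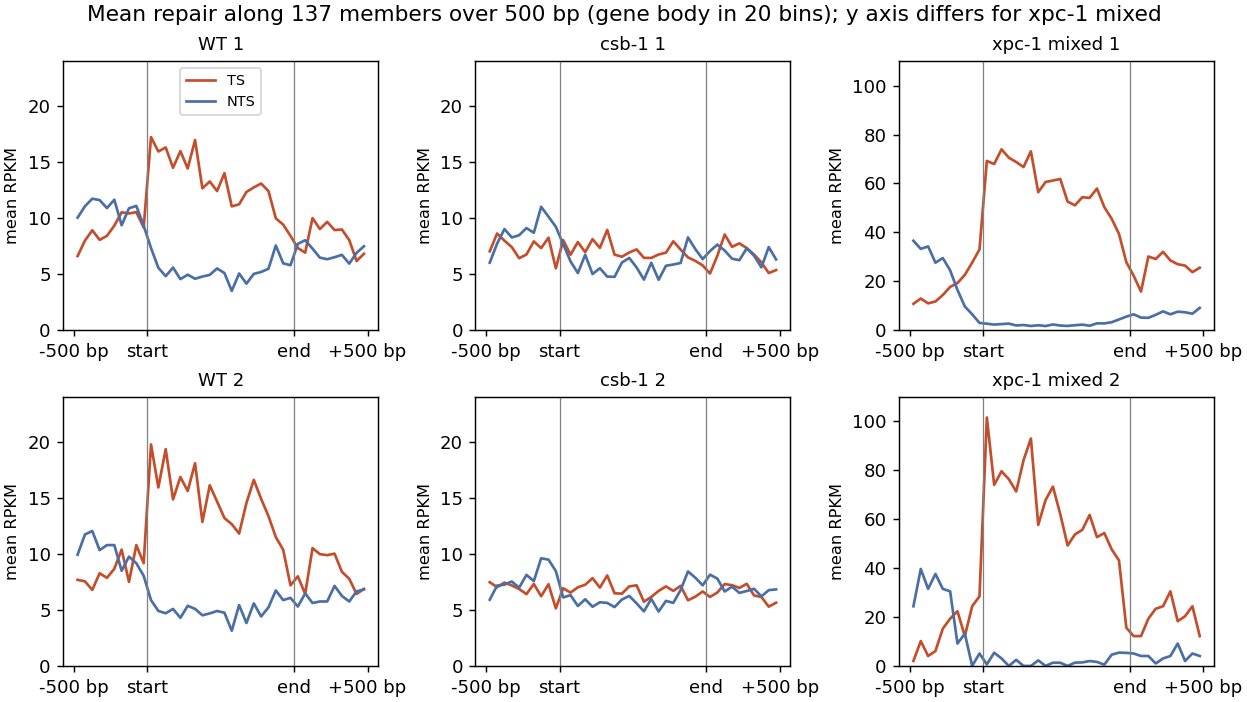
Mean RPKM of 137 members on the TS and the NTS, from 500 bp upstream to 500 bp downstream in bins of 50 bp, with the gene body scaled to 20 bins, for each irradiated library (the *xpc-1* mixed panels have a taller axis). TS repair steps up at the start and declines along the gene in WT and *xpc-1* mixed, and both strands stay near 5 to 9 RPKM within genes in *csb-1*.

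The short frames inside host genes had denser TS reads than their hosts in every irradiated library. Pooled over the 20 frames, TS density was 2.62 and 2.46 times that of the hosts in WT, 2.18 and 1.55 times in *csb-1*, and 3.18 and 3.37 times in *xpc-1* mixed, where replicate 1 was used in the choice. These frames held 92 and 124 TS reads in *csb-1* and 370 of the 62632 TS reads of members in the choosing library. C53H9.4 had 31 and 10 TS reads in WT and 0 and 3 in *csb-1*. C55C3.73, inside perm-5, had 15 and 6 in WT and 17 and 20 in *csb-1*. Its TS level was 40.7 and 40.99 RPKM in WT and 56.99 and 33.7 in *csb-1*, so that the *csb-1* libraries lay on both sides of WT. All 8 TTs of C55C3.73 lie on the TS and it had no NTS read in any of the 6 irradiated libraries.

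The short members of the 10 highest ranks differed among each other. C08B6.18, the highest-ranked, had 16 and 11 TS reads in WT and 3 in each *csb-1* library, so both WT libraries were higher although *csb-1* replicate 2 was the deepest. F13G3.15 had 9 and 2 TS reads in WT and 6 and 4 in *csb-1*, C14C10.10 had 8 and 4 against 0 and 4, and C56G2.22 had 7 and 3 against 3 and 3. T04H1.13 had 4 and 1 TS reads in WT and 1 and 4 in *csb-1*, B0035.22 had 8 and 2 against 5 and 11, and Y54F10AM.15 had 0 and 0 against 0 and 2. These counts are too low for the filter of the fit. In the fit without that filter, which took in all 21 short members, the strand ratio was called for 0 and the TS level was called higher in WT for 4 and lower for 0. The 4 were C53H9.4, C08B6.18, C14C10.10 and ZK856.19, and 6.83% of all genes were called higher there.

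Members were on the whole short genes, but the rule divides reads by gene length, so length is not independent of the choice. Their median length was 1082 bp against 1538 bp for the other sequence-named genes and 1055.5 bp for the top gene-class-named genes, and the median number of exons was 4 in each set. Chromosome X held 4 members (2.0%), of which 3 were short frames, against 1016 of the other 6229 genes (16.3%) and 0 of the 200 gene-class-named genes. Chromosome III held 46 members (23.0%), against 11.4% of the other sequence-named genes and 20.5% of the top gene-class-named genes. The upstream neighbour on the same strand ended within 500 bp, as in an operon, in 29 members (14.5%). The share was 19.6% in the other sequence-named genes and 11.5% in the top gene-class-named genes. These shares are descriptions of the chosen list and were not tested.

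Introns and exons were both repaired. In 139 members with several exons and no other gene on their strand, introns made up 21.1% of the length and 26.3% of the TTs on the TS. They held 18.5% and 16.02% of the TS reads in WT, 17.0% and 20.6% in *csb-1* larvae, and 19.6% and 11.8% in *xpc-1* mixed, the last from 194 intron reads. Per TT, TS reads of introns were thus 0.533 to 0.724 times those of exons in the L1 libraries and 0.683 and 0.374 times in *xpc-1* mixed. On the NTS the same ratio was 0.408 to 0.551 in the L1 libraries, so the lower value of introns per TT was not particular to the TS. It was 0.443 and 0.633 on the NTS in *xpc-1* mixed, the last from 15 intron reads. Per bp, introns had 0.712 to 0.967 times the TS reads of exons in the L1 libraries. On the NTS the ratio per bp was 0.820 to 1.11 there, the highest in *csb-1* replicate 2. The lower value of introns thus depends on the division by TTs, more so on the NTS.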

How the data were processed

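XR-seq reads of CPDs from 8 libraries were analysed. According to the methods and the submitters' processing notes, the authors removed adaptors with cutadapt, used Bowtie 2 against ce11, and then filtered and deduplicated. The score column, as deposited, holds a mapping quality of 0 to 42, and the read name closes with a number of copies, whose meaning was taken from the values. Only nuclear reads whose mapping quality exceeded 20 were kept, each counted once. A read belongs to the gene that holds its midpoint, and TS means the strand complementary to the annotated strand. Genes are those of Ensembl 115 on WBcel235, which is the same assembly as ce11, whereas the authors used WormBase and UCSC annotations. RefSeq products matched all 200 members. In ranking, 12 protein-coding genes without a name were left out, none above the threshold.

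Strand ratios and levels (pseudocount 0.5) went into limma 3.58.1 (R 4.3.3), whose prior variance followed a trend on mean reads, for every gene that averaged 20 or more reads, and Benjamini-Hochberg adjustment over them. The fit was tested on simulated data. The 5′ to 3′ ratio needed 20 TS reads. Tables were made in Python 3.11.15 with pandas 2.3.3 and scipy 1.17.1. Shares have Clopper-Pearson intervals of 95%, and a count of 0 allows up to 3 reads. Both cover counting error only, and identical PCR copies are not independent molecules.

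Members named are the 10 of highest rule value, the 8 with the largest called positive and the 6 with the lowest difference among those averaging 100 or more reads, the 5 densest in *xpc-1* mixed replicate 2, and the 3 on each side of the threshold. Other members were named as examples of product groups or of counts after their values were seen. The members and lists were chosen with earlier results of these data known. Alternatives changed the pseudocount to 2, the filter, the read counting, the mapping quality, TT content, the normalization, the genes fitted or the members, used the replicate number as a block, or left out 1 library. Members longer than 100 bp alone were an alternative chosen after seeing the data. Protein sequences were not used here.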

Additional observations from a re-analysis of the deposited data

Results flagged for a closer look

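The strand ratio of the members differed between the strains by a test of the difference itself: limma called 67.2% of 177 tested members higher in WT than in *csb-1* and 0 members lower, beside 13.3% and 0.344% of all genes tested. The strain contrast has 2 libraries on each side, and no explanation was weighed. Groups of 2 libraries are too small for a test of a library that stands apart.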

How the results depend on the processing

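The median ratio difference was 1.16, ran from 1.10 to 1.26 with 1 library left out, and rose to 1.39 with reads counted by copies. The number called higher in WT on the ratio ran from 46 to 140 with 1 library left out, the WT ratio above 0 from 155 to 166, and the TS level from 96 to 137. For *csb-1* against 0 these ranges were 1 to 68 above and 0 to 13 below. The NTS level ran from 0 to 24 lower and 0 to 2 higher, the TS level from 0 to 1 lower, and the 5′ to 3′ ratio from 0 to 11 higher. Each fit with 1 library left out has 1 library in a group. The shares of all genes called on the ratio and on *csb-1* against 0 also rose without 1 WT library. They fell without 1 *csb-1* library. The ranges of counts are therefore not read as results about the members. With no filter on low counts, 46890 genes were tested and 4 members were called on the ratio (0.593% of all genes). The WT ratio was called above 0 for 42 members. For *csb-1*, 1 was above and 0 below 0 (0.486% and 0.544% of all genes). Division by TT content gave 17 above and 2 below 0 in *csb-1* (3.63% and 3.27% of all genes). The NTS level was called lower for 1 member with 1 read per position, 0 with copies, 0 after quantile normalization and 0 in a fit over protein-coding genes with no gene on the other strand. A pseudocount of 2 gave 1 call on the 5′ to 3′ ratio. The shares of all genes called on the NTS level and the 5′ to 3′ ratio under these settings are not given here. The TS level was called higher for 136 members without the filter (6.83% of all genes). The cause of these changes was not tested.

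The replicate numbers did not pair the samples: deviations of same-numbered libraries correlated at -0.01 for the ratio and 0.04 for the TS level over 13451 genes. With the replicate block the ratio was higher in 127 members (16% of all genes) and the TS level in 141 (15.1%). The NTS level was then lower in 6 members, and the 5′ to 3′ ratio was higher in 2. The block changed no other count by over 1.5 times. The difference of C24F3.2 turned to 0.11 without WT replicate 1 and ran from -0.33 to 0.13 with 1 library left out, and that of F58H1.3 ran from -0.0050, without *csb-1* replicate 2, to 0.67. Depth limits the 21 frames of 100 bp or less, none of which passed the filter, and everything in *xpc-1* mixed replicate 2.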
